A study of Macaca mulatta with 20 samples.

Results

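Corpora lutea of rhesus macaques that had been given human chorionic gonadotropin (hCG) for 3 days and were collected on luteal day 12 were compared with untreated corpora lutea of luteal day 10. The comparison takes 8 of the 20 arrays of the series, 4 in each group, chosen by the group that the sample labels give. The untreated females received no hCG and their corpora lutea were the study's baseline. The treated females received recombinant hCG into muscle from luteal day 9 in 2 injections each day, at doses that climbed over the 9 days of the scheme from 15 to 2880 IU. The labels call every sample female, give no ages and count 4 corpora lutea in each group without saying whether they came from different animals, so p-values here describe the spread between these samples only. No untreated corpora lutea of day 12 were analysed here. Days of hCG, luteal day and dose therefore cannot be told apart in this comparison. Of the other 12 arrays, those of hCG day 10 (1 day of hCG) and hCG day 15 (6 days) were used to place the day 12 values in the course, and all 20 entered the estimate of the spread.

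After ovulation the emptied follicle turns into the corpus luteum, a short-lived endocrine gland. Its steroidogenic cells turn cholesterol, either taken up from lipoproteins or made in the cell from acetyl-CoA, into progesterone, which the uterus needs for pregnancy. Luteinizing hormone supports the gland during the cycle, and in early pregnancy chorionic gonadotropin from the implanting embryo acts on the same receptor, raises cyclic AMP and keeps the gland working. Rising doses of hCG imitate that signal.

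RNA was hybridised to Affymetrix rhesus arrays, and each probe set has one signal per array, a brightness on a linear scale that the authors had scaled to a common level. Of the 52707 probe sets tested, 24956 carry a single gene symbol. Principal components separated the arrays of the comparison only in part. On the first component, untreated arrays lay between -45.4 and -21.9, and the hCG day 12 arrays at -5.2, -29.4, 80.2 and 25.8. Replicate 2 of hCG day 12 thus lay among the untreated arrays, and replicate 3 lay the farthest from them and had the lowest median signal (31.6). On the third component, untreated replicate 2 and hCG day 12 replicate 1 (both 54.8) lay apart from the other arrays of the comparison, together with an hCG day 15 array. Which calls ended without these 3 arrays is given with the counts. The median SD over the 4 arrays was 0.209 log2 units in the untreated group and 0.267 on hCG day 12 (24695 probe sets with a mean signal of at least 50).

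**Figure D1:**
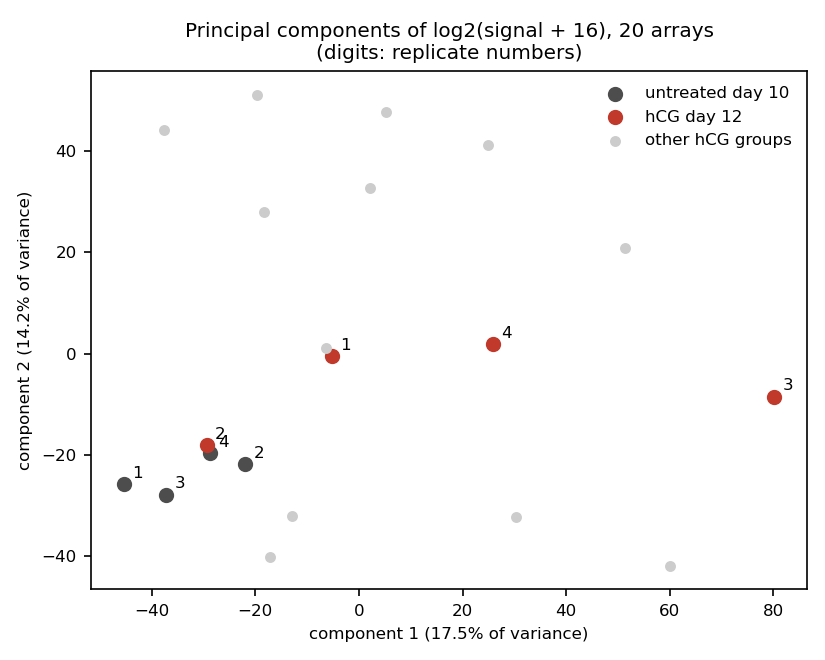
First principal component against the second for all 20 arrays, with the replicate number beside each array of the comparison. Dark points are the untreated arrays, red points the hCG day 12 arrays and grey points the other hCG groups; hCG day 12 replicate 2 lies at -29.4 on the first component and replicate 3 at 80.2.

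Changes are given as differences of log2(signal + 16), hCG day 12 minus untreated, with the standard error, and a change passed where its p in limma, adjusted over all probe sets (Benjamini-Hochberg), was under 0.05. Of the 52707 probe sets, 152 (0.288%) changed, 83 of them higher (0.157%) and 69 lower (0.131%), and 5566 had an unadjusted p under 0.05. They covered 44 named genes that rose and 34 that fell, while 50 carried no symbol. With 1 probe set for each of 14132 named genes, 64 genes passed (0.453%), 37 higher (0.262%) and 27 lower (0.191%). In all 152 the arrays of the 2 groups did not overlap, which held for 2.14% of all probe sets in the higher and 3.56% in the lower direction, and for 3.3% and 3.23% of named genes. The median change over these genes was -0.01, with 6797 above 0 (48.1%) and 7335 below. These shares of all named genes are the background for the list counts below. The array medians of hCG day 12 lay 0.14 log2 units below those of the untreated arrays. Centring each array on its median takes this shift out and then gives 133 higher and 47 lower, so the share that was higher went from 54.6% to 73.9%.

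The count of 152 depends on single arrays. Leaving out untreated replicate 1 gave 77, and untreated replicate 4 gave 82. Leaving out hCG day 12 replicate 3 gave 73, replicate 4 gave 82 and replicate 2 gave 290, and leaving out the 3 arrays apart on the third component gave 93. For 83 of the 152 probe sets, hCG day 12 replicate 2 had the value closest to the untreated group, and for 66 of them replicate 3 had the farthest. A fit of the 8 arrays alone, which has a less precise estimate of the spread, called 7 probe sets. Of 46 calls that are named below, it kept those of HMGB3 and CEBPA and ended the other 44, so those 44 rest on the spread of all 20 arrays. Of the same 46, 22 held when any single array was left out, and 23 ended without the 3 arrays apart on the third component. Those 23 were the calls of MVD, CYP51A1, EBP, DHCR7, SLC30A4, BICDL1, VSIR, ATXN7, ZDHHC19, WDR41, S100A2, LRRFIP2, BTC, IL18, TMEM200A, ADAM12 and SLAIN1 and, with 2 probe sets each, of IDI1, FDFT1 and ID4.

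**Figure D2:**
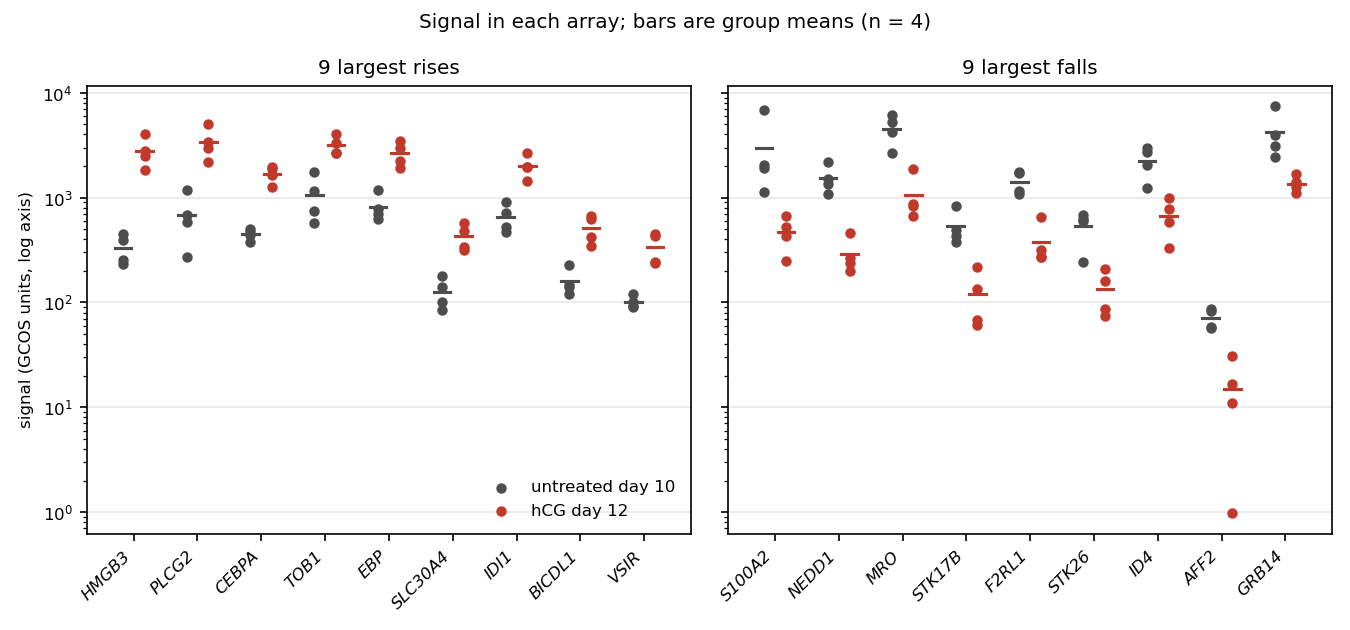
Signal of each array on a log axis for the 9 genes with the largest rises (left) and the 9 with the largest falls (right) among named genes that passed, untreated in grey and hCG day 12 in red, with bars at group means (n = 4). The 4 hCG day 12 arrays lie on one side of the 4 untreated arrays for every gene plotted; HMGB3 goes from 233 to 446 in the untreated arrays to 1833 to 4035 on hCG day 12.

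In cholesterol synthesis, 5 of 13 measured genes (20 listed) rose after 3 days of hCG, none fell and 8 did not pass. Of all named genes, 0.262% rose and 0.191% fell. Those that rose were IDI1, FDFT1, CYP51A1, EBP and DHCR7. All 13 lay above 0, against 48.1% of all named genes, with a median change of 1.13 against -0.01. In 8 of the 13 the arrays of the 2 groups did not overlap, against the 3.3% of all named genes. The summed signal of the 13 genes was 9618 to 14320 in the untreated arrays and 19920 to 26040 on hCG day 12. This list was drawn up with the change already known, so its direction is not independent evidence.

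The pathway builds isoprene units from mevalonate, joins them to squalene and closes squalene to a sterol that a row of late enzymes trims to cholesterol. Early enzymes did not pass, with MVK, mevalonate kinase, at 0.20 ± 0.17 and PMVK, the next kinase, at 0.33 ± 0.19 (adjusted p = 0.7 and 0.57). MVD, which makes isopentenyl diphosphate, was measured by 2 probe sets with changes of 1.25 ± 0.35 (adjusted p = 0.17) and 1.24 ± 0.25 (adjusted p = 0.036), and only the latter rose. In that probe set the untreated signals were 150, 182, 239 and 151 and those of hCG day 12 were 660, 366, 401 and 384. Replicate 1 stood above the other treated arrays, and its call ended without any of 6 single arrays (adjusted p up to 0.14).

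IDI1, isopentenyl diphosphate isomerase, had untreated signals of 1046, 1292, 1833 and 853, against 4070, 3091, 3202 and 2358 on hCG day 12. Its change was 1.36 ± 0.26 (2.57-fold, adjusted p = 0.024), and another of its probe sets changed by 1.61 ± 0.29 (adjusted p = 0.016). FDFT1, squalene synthase, went from 1583, 1458, 2330 and 1504 to 3973, 3637, 3691 and 3551, a change of 1.13 ± 0.20 (2.19-fold, adjusted p = 0.014), with 1.45 ± 0.27 in its second probe set. The treated arrays of FDFT1 lay close together, and untreated replicate 3 was the highest untreated array for both genes. Between them acts FDPS, farnesyl diphosphate synthase, which was at 0.21 ± 0.17 (adjusted p = 0.68). IDI1 lost its call without untreated replicate 1 or 4 or hCG day 12 replicate 1 or 3 (adjusted p up to 0.11), and FDFT1 without untreated replicate 1 or 4 (up to 0.06).

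SQLE, squalene epoxidase, did not pass (1.15 ± 0.29, adjusted p = 0.11), although its untreated signals of 341, 460, 611 and 273 all lay below the 1119, 914, 1030 and 650 of hCG day 12. CYP51A1, lanosterol demethylase, had 929, 1023, 1557 and 775 untreated and 2900, 2491, 2362 and 1846 on hCG day 12 (1.18 ± 0.24, 2.27-fold, adjusted p = 0.036). The later enzymes TM7SF2 (0.80 ± 0.21), NSDHL (0.78 ± 0.24) and HSD17B7 (0.98 ± 0.28 in the probe set with the highest mean) did not pass, with adjusted p of 0.13, 0.24 and 0.19. A dimmer probe set of HSD17B7, with untreated signals of 159, 320, 199 and 116 and treated ones of 603, 494, 568 and 405, rose by 1.38 ± 0.27 (adjusted p = 0.029).

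EBP, a sterol isomerase, went from 693, 782, 1172 and 627 to 3476, 1911, 2966 and 2230 (1.68 ± 0.28, 3.20-fold, adjusted p = 0.011). DHCR7, which makes cholesterol in the last step, went from 291, 187, 358 and 221 to 904, 614, 962 and 648 (1.52 ± 0.30, 2.87-fold, adjusted p = 0.031). In both, hCG day 12 replicates 1 and 3 were higher than replicates 2 and 4, and no treated array reached down to an untreated one. EBP kept its call without any single array (adjusted p up to 0.049) but not without the 3 arrays apart on the third component. The calls of CYP51A1, HSD17B7 and DHCR7 each ended without 6 of the 8 single arrays, with adjusted p up to 0.14, 0.13 and 0.13.

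Over the list, 1 gene passed without untreated replicate 1 or 4, 2 without hCG day 12 replicate 1 or 3, 3 without untreated replicate 2, and 0 without the 3 arrays apart on the third component or with the 8 arrays alone. The sizes moved less than the calls. The list median was 0.97 to 1.28 when any single array was left out and 1.03 without the 3 arrays, and 13 of 13 genes stayed above 0 each time. Set against the same untreated arrays, the list median was 1.02 after 1 day of hCG, 1.13 after 3, 1.27 after 6 and 1.56 after 9 days, and these values share those arrays. In the test between hCG groups, which does not use them, 0 of the 13 genes differed between days 10 and 12, where 0.722% of named genes did, 0.12% higher and 0.601% lower on day 12. With so few genes, 0 is near that share and does not show that the list stayed level between these days.

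**Figure D3:**
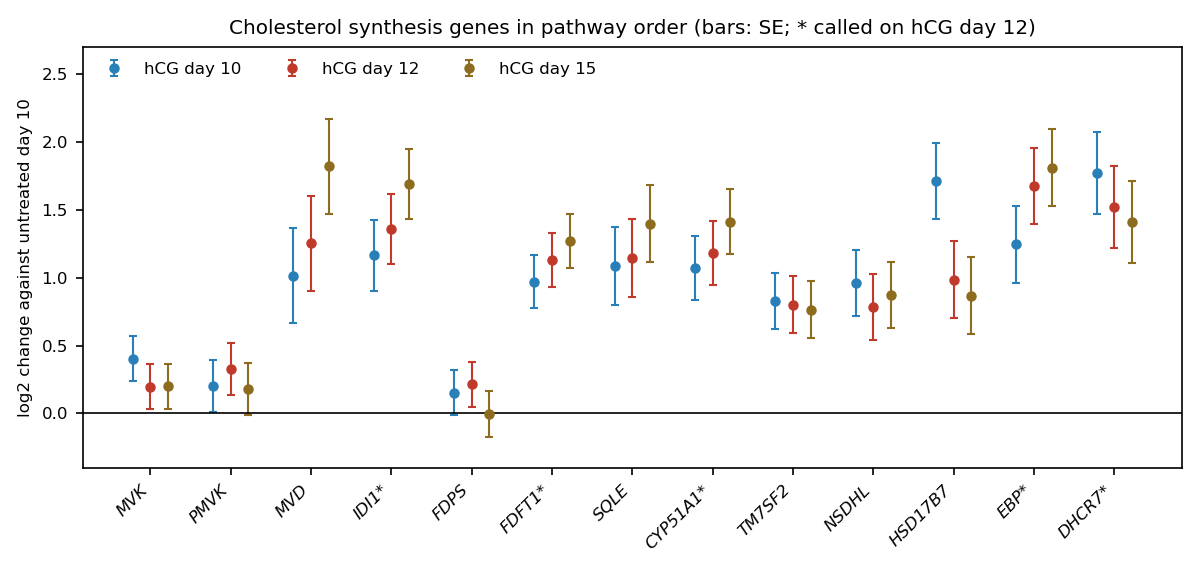
Change against untreated day 10 in log2 units for the 13 measured cholesterol synthesis genes, in pathway order, on hCG days 10 (blue), 12 (red) and 15 (ochre), with standard errors and the probe set of highest mean per gene. On day 12 the points run from 0.20 for MVK to 1.68 for EBP, and an asterisk marks the 5 genes that passed that day; all points share the untreated arrays.

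Uptake, storage and export of cholesterol gave 0 of 15 measured genes past the test, with a median of 0.20 and 11 genes above 0. INSIG1, which holds the sterol sensor of the cell in the endoplasmic reticulum, went from 593, 539, 767 and 595 to 1186, 1146, 1298 and 910 (0.85 ± 0.26, adjusted p = 0.22). NPC1, which lets cholesterol leave the lysosome, was at 0.74 ± 0.29 (adjusted p = 0.38), and LIPA, the lysosomal esterase before it, at -0.28 ± 0.18 (adjusted p = 0.62). The groups did not overlap in these 3 genes, INSIG1 and NPC1 higher and LIPA lower, but the test did not pass in any of them. Over all named genes, the groups did not overlap in 3.3% in the higher and 3.23% in the lower direction. The transcription factors of sterol control were at 0.86 ± 0.27 (SREBF1) and 0.50 ± 0.19 (SREBF2), with adjusted p of 0.24 and 0.35.

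In the fatty acid synthesis list 0 of 9 genes passed, and 8 lay above 0 (median 0.61). The list also holds TMEM97, which is not an enzyme of that pathway. FASN, fatty acid synthase, had 123, 115, 159 and 166 in untreated arrays and 395, 191, 282 and 242 on hCG day 12 (0.88 ± 0.25, adjusted p = 0.19). ACLY, which makes cytosolic acetyl-CoA from citrate, was at 0.61 ± 0.20 and ACACA, acetyl-CoA carboxylase, at 0.71 ± 0.30 (adjusted p = 0.28 and 0.41). The second probe set of ACACA was at 0.09. Arrays of the groups did not overlap in 5 of the 9 (FASN, ACLY, ACACA, ACSS2 and TMEM97), all higher, against 3.3% of all named genes in that direction. This list too was chosen with earlier results known, so its direction is not independent evidence. A probe set of ME1, malic enzyme, that does not represent the gene in the list rose by 0.84 (adjusted p = 0.022), while the representing probe set was at 0.20 (adjusted p = 0.59).

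Steroid hormone synthesis gave 1 of 20 genes higher and 0 lower, against 0.262% and 0.191% of all named genes, with a median of 0.13. The gene that rose was MRAP, an accessory protein of melanocortin receptors, with 637, 1080, 919 and 1034 untreated and 2332, 1720, 2036 and 2146 on hCG day 12 (1.17 ± 0.15, 2.25-fold, adjusted p = 0.0014). Its call held without any single array, and its second probe set was at -0.03. The melanocortin receptor gene MC2R stayed under 50 in all arrays of both groups. STAR, which carries cholesterol into mitochondria, had untreated signals of 14120, 14750, 13120 and 17490 and treated signals of 23030, 13750, 11280 and 16730. The groups overlapped, and its change was 0.08 ± 0.18 (adjusted p = 0.9), a sign that turned without hCG day 12 replicate 1 (-0.11). HSD3B2, which makes progesterone, was at -0.37 ± 0.21 (adjusted p = 0.56).

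No gene of the androgen and estrogen branch passed. CYP17A1, which makes androgens, went from 358, 406, 274 and 255 to 1203, 610, 1552 and 551 (1.44 ± 0.34, adjusted p = 0.08), with replicates 1 and 3 far above replicates 2 and 4, and its second probe set was at 0.10. Without hCG day 12 replicate 2, or with probe sets of a mean signal of at least 50 only, it passed. POR, the reductase that passes electrons to such enzymes, was at 0.88 ± 0.19 (adjusted p = 0.053), and it passed without the same replicate and in several other settings, median-centring among them, while its other probe sets lay between -0.24 and -0.21. CYP19A1, aromatase, had 6827, 6733, 6927 and 3806 untreated and 11460, 9033, 6878 and 10350 on hCG day 12 (0.65 ± 0.26, adjusted p = 0.38). NR5A2, a nuclear receptor that acts on steroidogenic genes, was lower in every treated array (-0.53 ± 0.17, adjusted p = 0.27).

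Among regulators of transcription, CEBPA and HMGB3 rose. CEBPA, a factor of differentiation in liver, fat and myeloid cells, went from 435, 472, 502 and 379 to 1252, 1644, 1963 and 1874 (1.86 ± 0.26, 3.64-fold, adjusted p = 0.0029). All 3 of its probe sets rose, by 1.38 to 1.86, and its call held without any single array and in the fit of the 8 arrays. It was the only member of 9 measured C/EBP factors and acute phase genes that passed (median 0.10). CEBPB was at 0.63 ± 0.18 (adjusted p = 0.18), and HP, haptoglobin, had 83.3, 36.8, 54.8 and 102 untreated and 151, 53.5, 845 and 413 on hCG day 12. HP was high in replicates 3 and 4 only, and its change of 1.66 ± 0.72 did not pass (adjusted p = 0.43).

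HMGB3, a chromatin protein with HMG boxes, had the largest rise of the named genes that passed. Its signals were 233, 446, 254 and 398 in untreated arrays, against 2792, 1833, 2468 and 4035 on hCG day 12 (3.00 ± 0.38, 7.98-fold, adjusted p = 0.0014). The lowest treated array lay far above the highest untreated array. This was 1 of 4 probe sets, and the other 3 lay between -0.27 and 0.81 and did not pass. It was the only one of 9 measured HMG box, HMGA and HMGN genes to pass (median -0.16), with HMGB1 at -0.16 ± 0.17 and HMGB2 at -0.22 ± 0.22.

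TOB1, which restrains cell proliferation, went from 1758, 568, 1156 and 745 to 2640, 2649, 3343 and 4082 (1.68 ± 0.24, 3.20-fold, adjusted p = 0.0034). The untreated arrays spread over a wide range but stayed below the treated ones, both probe sets rose, and no single array ended the call. Its relatives TOB2 (-0.48 ± 0.23), BTG2 (-0.74 ± 0.36) and BTG3 (0.26 ± 0.16) did not pass, which left 1 of 4 higher in that family (median -0.11).

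MGST1, a membrane-bound glutathione transferase, rose in both probe sets, by 1.12 ± 0.18 and 1.30 ± 0.17 (adjusted p = 0.0063 and 0.0014). In the brighter probe set its signals went from 2698, 3608, 3581 and 2864 to 9971, 5697, 7388 and 5313, and the call held without any single array. MGST1 was the 1 gene of 14 measured antioxidant genes that passed, and 12 of the 14 lay above 0 (median 0.13). Of all named genes, 0.453% passed and 48.1% lay above 0. CAT, catalase, was at 1.01 ± 0.39 and GCLC, the catalytic subunit of glutathione synthesis, at 0.53 ± 0.19 (adjusted p = 0.37 and 0.32), with groups that did not overlap. The second probe set of CAT was at 0.28, and the other 4 of GCLC lay between -0.08 and 0.83.

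The remaining rises among the 15 that the naming rule takes were in genes of signalling, transport and protein turnover. PLCG2, a phospholipase used by immune receptors, went from 579, 274, 1194 and 687 to 2168, 5032, 3372 and 2983 (2.39 ± 0.49, 5.26-fold, adjusted p = 0.038). Its second probe set was at 0.02, and leaving out any single array but untreated replicate 3 ended its call (adjusted p up to 0.11). PTPN22, a phosphatase that restrains lymphocyte receptors, went from 88.0, 139, 113 and 97.2 to 353, 271, 403 and 305 (1.48 ± 0.23, 2.79-fold, adjusted p = 0.006), and held without any single array. This was 1 of 4 probe sets, and the other 3 lay between 0.30 and 1.41 and did not pass. VSIR, an immune checkpoint receptor, had 101, 121, 89.8 and 91.8 untreated and 435, 235, 241 and 446 on hCG day 12 (1.55 ± 0.31, adjusted p = 0.029). It lost its call without untreated replicate 1, 3 or 4 or hCG day 12 replicate 1 or 4 (adjusted p up to 0.12). These 3 genes are known from leukocytes. The summed signals of leukocyte markers overlapped between untreated and hCG day 12 arrays, at 5335 to 13250 and 5951 to 8962 for 10 macrophage markers and at 4237 to 11240 and 8757 to 11090 for 5 T and NK markers, and the part of leukocytes in these rises was not tested.

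SLC30A4, a zinc transporter, went from 85.1, 177, 100 and 140 to 578, 317, 485 and 338 (1.66 ± 0.30, adjusted p = 0.019). PSME3, a proteasome activator, had 578, 757, 631 and 557 untreated and 2342, 1018, 2594 and 1885 on hCG day 12 (1.54 ± 0.26, adjusted p = 0.0086). BICDL1, an adaptor for dynein, went from 147, 142, 226 and 121 to 665, 343, 628 and 421 (1.58 ± 0.28, adjusted p = 0.016). In all 3, hCG day 12 replicates 1 and 3 were the highest. Other probe sets of these genes did not pass, at -0.10 for SLC30A4, -0.11 and 0.17 at the ends for PSME3 and 0.39 to 0.94 for BICDL1. The calls of SLC30A4 and BICDL1 ended without hCG day 12 replicate 1 or 3 or untreated replicate 1, and also without untreated replicate 3 and 4 respectively (adjusted p up to 0.079 and 0.074). That of PSME3 held without any single array (up to 0.048).

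Receptor and ligand genes were among the falls. F2RL1, the protease-activated receptor that trypsin-like enzymes cut, had untreated signals of 1748, 1075, 1712 and 1146 and treated signals of 314, 654, 272 and 269 (-1.93 ± 0.24, 3.82-fold lower, adjusted p = 0.0011). Replicate 2 stood above the other treated arrays. Both probe sets fell, and the call held without any single array. Of 8 measured protease-activated and serotonin receptor genes, listed with NGFR, F2RL1 was the 1 that fell, and 7 lay below 0 (median -0.60). HTR2B, a serotonin receptor, went from 313, 411, 384 and 504 to 149, 98.5, 230 and 134, without overlap (-1.35 ± 0.34, adjusted p = 0.11). NGFR, the low-affinity neurotrophin receptor, was at -1.30 ± 0.36 (adjusted p = 0.17) and its second probe set at 0.24.

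BTC, betacellulin, a ligand of the EGF receptor, fell in both probe sets. Its signals were 429, 368, 431 and 509 in untreated arrays and 141, 108, 125 and 242 on hCG day 12 (-1.46 ± 0.24, 2.74-fold lower, adjusted p = 0.008), and no single array ended the call, though leaving out the 3 arrays apart on the third component did. AREG, amphiregulin, another ligand, had 9134, 6367, 7603 and 9356 untreated and 1580, 4582, 2654 and 3011 on hCG day 12. Its groups did not overlap either, but with a change of -1.53 ± 0.45 it did not pass (adjusted p = 0.21). EGFR itself was at -0.34 ± 0.54 and HBEGF, a further ligand, at 0.33 ± 0.30. BTC was the 1 of 9 genes of EGF receptor ligands and receptors that passed (median -0.23, or -0.10 with the median over each gene's probe sets).

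ID4, which blocks helix-loop-helix transcription factors, fell in 3 of 4 probe sets. In the brightest, untreated signals were 5758, 6444, 3946 and 7833 and those of hCG day 12 were 2918, 3198, 2192 and 2782 (-1.08 ± 0.19, 2.11-fold lower, adjusted p = 0.013). That call ended without hCG day 12 replicate 3 or untreated replicate 4 (adjusted p up to 0.064), whereas a dimmer probe set fell by 1.75 ± 0.29 (adjusted p = 0.0086) and kept its call without any single array (up to 0.048). Neither call held without the 3 arrays apart on the third component. ID1 and ID3 were at 0.12 ± 0.27 and 0.15 ± 0.24. ID4 was the 1 of 24 genes of the TGF-beta family, its antagonists and ID factors that passed (median -0.02). FST, which binds activin, went from 119, 494, 253 and 597 to 814, 1154, 769 and 890 (1.48 ± 0.35, adjusted p = 0.084), and passed without untreated replicate 4, with median-centring and in some other settings.

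Kinase genes STK17B and STK26 fell. STK17B, a kinase of the death-associated family, went from 836, 488, 377 and 432 to 67.9, 217, 60.5 and 133 (-2.10 ± 0.31, 4.29-fold lower, adjusted p = 0.0035). Both of its probe sets fell, and no single array ended the call. STK26, a STE20 kinase, went from 685, 244, 623 and 597 to 74.9, 210, 159 and 87.4 (-1.90 ± 0.33, 3.72-fold lower, adjusted p = 0.014) and fell in 3 of 5 probe sets. Its untreated replicate 2 lay just above the highest treated array, and its call ended without untreated replicate 1 or 4 or hCG day 12 replicate 1 or 4 (adjusted p up to 0.064). The other 11 measured members of these kinase families did not pass (median of the 13, -0.06), STK17A among them at -0.45 ± 0.17.

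NEDD1, a centrosome protein that brings in gamma-tubulin, fell in all 4 of its probe sets, by 1.85 to 2.36 on the log2 scale. In the probe set with the largest change, untreated signals were 2199, 1091, 1342 and 1513 and treated ones 240, 457, 199 and 267 (-2.36 ± 0.29, 5.13-fold lower, adjusted p = 0.0011), and the call held without any single array. S100A2, a calcium-binding protein, had 1934, 6862, 2036 and 1139 untreated and 674, 520, 426 and 248 on hCG day 12 (-2.38 ± 0.46, 5.21-fold lower, adjusted p = 0.025). Untreated replicate 2 was far above the rest, and the call ended without it, without untreated replicate 1 or without hCG day 12 replicate 3 or 4 (adjusted p up to 0.1). S100A2 was the 1 of 13 S100 genes that passed, against 0.453% of all named genes. The list median was -0.31, or -0.08 with the median over each gene's probe sets, with S100A10 at -0.44 ± 0.15 and S100A6 at -0.47 ± 0.19.

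MRO fell in 1 of 3 probe sets, from 4217, 6081, 2652 and 5233 to 1890, 870, 662 and 840 (-2.13 ± 0.41, adjusted p = 0.024), while the others were at 0.46 and 0.50. GRB14, an adaptor that binds the insulin receptor, went from 3990, 2436, 3096 and 7422 to 1099, 1258, 1407 and 1671 (-1.52 ± 0.26, 2.86-fold lower, adjusted p = 0.014). IL18, a cytokine, went from 518, 346, 326 and 422 to 139, 194, 119 and 114 (-1.42 ± 0.29, adjusted p = 0.038). In none of the 3 did the groups overlap. The MRO call ended without untreated replicate 1, 2 or 4 or hCG day 12 replicate 3 or 4 (adjusted p up to 0.11), and that of GRB14 without untreated replicate 1 or hCG day 12 replicate 1 (up to 0.051). IL18 lost its call without any single array but hCG day 12 replicate 2, and with median-centring (up to 0.15).

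The remaining 5 falls of the naming rule were in dim probe sets, whose size depends on the constant added before the logarithm. BCO2, which cleaves carotenoids, went from 117, 123, 79.7 and 140 to 40.2, 30.2, 31.7 and 29.7 (-1.40 ± 0.16, adjusted p = 0.0011; -0.87 with 64 added in place of 16). Its call held without any single array, and its second probe set did not pass (-0.16). TMEM200A, with 108, 97.5, 187 and 84.5 untreated and 40.3, 53.9, 31.2 and 37.1 on hCG day 12, fell by 1.22 ± 0.24 (adjusted p = 0.036; -0.78 and adjusted p = 0.057 with 64 added). ZNF219, a zinc finger gene, went from 19.4 to 43.0 in untreated arrays to 2.99 to 4.98 on hCG day 12 (-1.28 ± 0.20, adjusted p = 0.0061; -2.80 with 1 added, -0.51 with 64), and its second probe set did not pass (-0.02). AFF2 and LRRFIP2, at 41.2 to 86.0 in untreated arrays and 0.97 to 30.9 on hCG day 12, fell by 1.58 ± 0.27 and 1.48 ± 0.29 (adjusted p = 0.013 and 0.029). With 1 added these were -2.73 and -2.57 and did not pass (adjusted p = 0.15 and 0.066), and with 64 added -0.79 and -0.70. A brighter probe set of AFF2, named after its values were seen, went from 395, 254, 412 and 396 to 91.7, 111, 170 and 84.1 (-1.57 ± 0.23, adjusted p = 0.0034). The calls of TMEM200A and LRRFIP2 each ended without several single arrays (adjusted p up to 0.14 and 0.12) and that of AFF2 without untreated replicate 1 (up to 0.056). In 18 of the 152 probe sets that changed, all hCG day 12 arrays had a signal under 50.

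Beyond these, 5 genes, named after their values were seen, changed in 2 of their probe sets. MAPKAPK2, a kinase downstream of p38, went from 132, 150, 149 and 162 to 331, 308, 325 and 494 (1.19 ± 0.15, adjusted p = 0.0014). RBPMS, an RNA-binding protein gene, went from 1484, 1558, 1750 and 1713 to 2494, 3736, 4575 and 3082 (1.05 ± 0.17, adjusted p = 0.0061). Both held without any single array. ATXN7 rose by 0.98 ± 0.16 and SUPT3H fell by 1.18 ± 0.18 (adjusted p = 0.0084 and 0.0044), genes for subunits of the same histone acetyltransferase complex, SAGA. ADAM12, a metalloprotease gene, went from 918, 1043, 1102 and 698 to 551, 542, 277 and 388 (-1.10 ± 0.22, adjusted p = 0.036), and leaving out any of 5 single arrays ended its call (adjusted p up to 0.14).

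**Figure D4:**
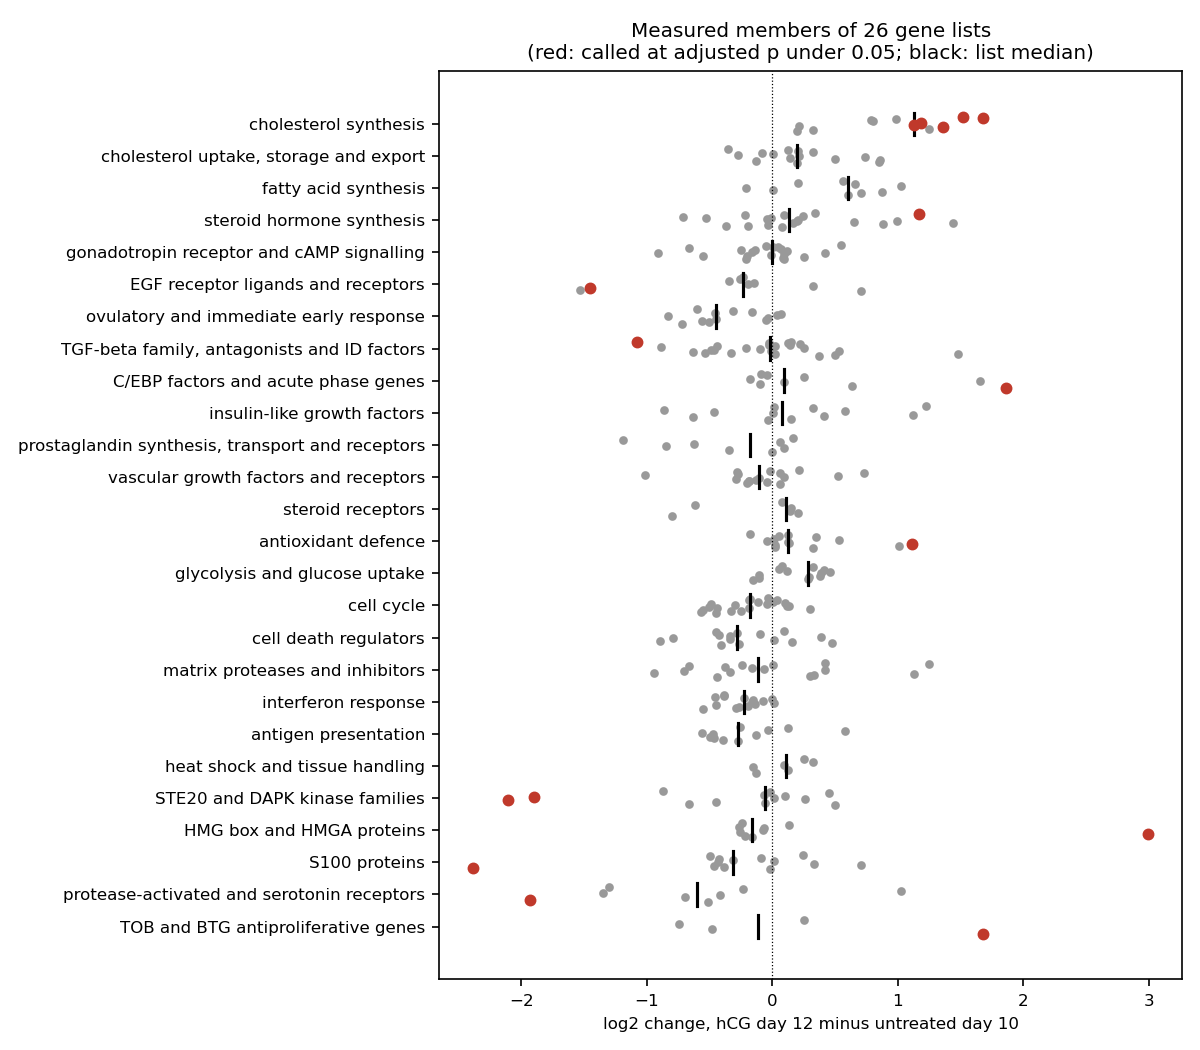
Change of each measured member of the 26 pathway and family lists, hCG day 12 minus untreated, in log2 units, with 1 probe set per gene. Red points passed, grey points did not and black ticks are list medians; cholesterol synthesis has 5 red points and a median of 1.13, and the STE20 and DAPK kinases have 2 red points far left of the list median of -0.06.

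The other 13 pathway lists held no gene that passed. In gonadotropin receptor and cyclic AMP signalling, 0 of 20 passed, with a median of 0.00. RGS2, which dampens G protein signals, was at 0.55 ± 0.27 and its second probe set at -0.14. Among 13 ovulatory and immediate early genes, 11 lay below 0 (median -0.45), with MYC at -0.60 ± 0.18 and TNFAIP6, a matrix protein of the ovulating follicle, at -0.72 ± 0.26 (adjusted p = 0.2 and 0.32). Of 12 insulin-like growth factor genes, IGF1 had 1382, 939, 743 and 1087 untreated and 948, 1118, 957 and 933 on hCG day 12 (-0.04 ± 0.22, adjusted p = 0.97), a sign that turned with median-centring (0.11) and without untreated replicate 1 (0.11). IGFBP1, a binding protein, went from 7603, 3295, 4475 and 4937 to 16320, 7709, 10180 and 9823 (1.12 ± 0.26, adjusted p = 0.071). Its lowest treated array lay just above the highest untreated one, and it passed without untreated replicate 1, without hCG day 12 replicate 2, with median-centring and in some other settings. The list median was 0.08.

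Prostaglandin genes (0 of 8, median -0.17) included HPGD, which inactivates prostaglandins, at -0.85 ± 0.31 (adjusted p = 0.34), with treated signals of 1343, 1513, 716 and 885 against 1786, 1646, 2422 and 1942 untreated. PTGDR, a prostaglandin D receptor, was at -1.19 ± 0.35 (adjusted p = 0.21), with 285, 482, 201 and 88.0 untreated and 109, 135, 67.2 and 64.5 treated, and it passed without untreated replicate 4. Vascular growth factors and receptors (0 of 17, median -0.10) included ADM, a vasodilator peptide, which went from 3179, 2711, 2109 and 4204 to 1261, 1165, 1753 and 1755 (-1.01 ± 0.24, adjusted p = 0.09), and which passed, among the settings tried, with quantile normalisation only. Of 6 steroid receptor genes, PGR, the nuclear progesterone receptor, was tight in untreated arrays at 120, 116, 127 and 123 and lower in all treated ones at 76.9, 95.0, 44.1 and 46.7. Its change of -0.80 ± 0.19 did not pass (adjusted p = 0.09), except without hCG day 12 replicate 2 and with array weights, and the list median was 0.11.

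Glycolysis and glucose uptake gave 0 of 13 (median 0.29, or 0.12 with the median over each gene's probe sets). In the cell cycle list 0 of 22 passed and 16 lay below 0 (median -0.18), where 7335 of all 14132 named genes lay below 0. MKI67, a marker of dividing cells, had 191, 207, 253 and 142 untreated and 134, 142, 172 and 109 on hCG day 12 (-0.45 ± 0.23, adjusted p = 0.5). CCNA2, cyclin A, was at -0.57 ± 0.16 (adjusted p = 0.19), with groups that did not overlap, and its second probe set was at -0.095. Cell death regulators gave 0 of 15 (median -0.28), matrix proteases and inhibitors 0 of 16 (-0.11), interferon response 0 of 15 (-0.22, 14 below 0), antigen presentation 0 of 11 (-0.27) and heat shock and tissue handling genes 0 of 6 (0.11). Under median-centring, 5 pathway list medians went from just below 0 to above it: the TGF-beta family (0.13), the kinase families (0.09), vascular factors (0.04), matrix proteases (0.03) and TOB and BTG genes (0.03). With the median over each gene's probe sets, that of steroid hormone synthesis went from 0.13 to 0.03 and that of steroid receptors from 0.11 to 0.01.

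Marker genes of cell types bear on what the tissue pieces held. RNA came from whole pieces of gland, so fewer cells of a type and less RNA in each cannot be told apart. None of the 12 marker lists held a gene that passed. Luteal steroidogenic markers (4 measured, median -0.06) and endothelial markers (12 measured, median -0.03) had summed signals that overlapped, at 38880 to 49890 and 10070 to 11410 in untreated arrays and 32900 to 53860 and 10630 to 12110 on hCG day 12. Both medians turned positive under median-centring (0.09 and 0.12). STAR, HSD3B2 and FDX1 had signals of 4934 or more in every array, so defining markers of luteal cells were present in both groups.

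Smooth muscle and pericyte markers lay above 0 in 7 of 7 genes (median 0.44), against 48.1% of all named genes. Their summed signal was 6765 to 8016 in untreated arrays and 7802 to 10160 on hCG day 12. MYH11, smooth muscle myosin, went from 565, 446, 513 and 729 to 1090, 754, 929 and 1330, without overlap (0.84 ± 0.27, adjusted p = 0.26). Fibroblast and stroma markers lay above 0 in 6 of 8 (median 0.48, summed signal 18380 to 22530 untreated and 20090 to 32180 treated). COL1A1, a chain of type I collagen, was at 1.03 ± 0.30 (adjusted p = 0.2), but its second probe set was at 0.02. These shifts accompany the changes above, and their part in them was not tested. Macrophage markers (10 measured, median -0.21) lay below 0 in 8 of 10. T and NK markers (5 measured) had a median of -0.23, and B and plasma cell markers (5 measured) one of -0.01 (0.13 under median-centring), with MS4A1, CD79A and MZB1 under 50 in all arrays of both groups. Granulosa (3 measured, 0.03, with AMH at a mean of 15.2 and 14.6), red blood cell (3, 0.50), adipocyte (3, -0.13, or 0.02 under median-centring), oocyte (4, 0.01) and surface epithelium markers (7, 0.16) held no gene that passed either.

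The change on day 12 was then set against those of the neighbouring collection days, in contrasts between hCG groups in which the untreated arrays cancel. Between hCG days 10 and 12, 273 of 52707 probe sets differed (0.518%), 54 higher on day 12 (0.102%) and 219 lower (0.416%). The count of 273 fell to between 151 and 179 without hCG day 10 replicate 1, 3 or 4 or hCG day 12 replicate 1, 3 or 4. Between hCG days 12 and 15, limma called 0 probe sets and 2705 had an unadjusted p under 0.05, which does not show that the groups were alike. Without hCG day 12 replicate 1 it called 4, and without hCG day 15 replicate 3 it called 2. The 6 named genes with the largest falls from day 10 to day 12 (ANKRD22, TMPRSS7, ELF5, DAPL1, MFSD2A and TDRD9) did not pass against untreated arrays on day 12. Their choice favours genes with a high value on hCG day 10. ANKRD22 went from a mean signal of 409 ± 198 (SD, n = 4) to 28.7 ± 28.7, against 57.7 ± 34.7 untreated (-3.36 ± 0.52, adjusted p = 0.0032). TDRD9, an RNA helicase gene known from germ cells, went from 432 ± 102 to 77.0 ± 43.7, against 139 ± 30.9 untreated (-2.35 ± 0.23, adjusted p = 5.6e-05). IGF1, the insulin-like growth factor, went from 2682 ± 524 on hCG day 10 to 989 ± 86.6 on day 12 (-1.41 ± 0.22, adjusted p = 0.0031), a level that overlaps the untreated one of 1038 ± 269.

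A small group of genes differed on day 12 both from untreated arrays and from hCG day 10. Of those named here, CYBRD1, ZDHHC19, WDR41 and SLAIN1 were chosen because they passed both tests. F2RL1 went from 960 ± 199 on hCG day 10 to 377 ± 186 on day 12 (-1.39 ± 0.24, adjusted p = 0.0083). CYBRD1, a ferric reductase, had 926, 1508, 1615 and 1105 untreated and 3275, 2351, 2362 and 3605 on hCG day 12 (1.17 ± 0.19, adjusted p = 0.008), and 1192 ± 141 on hCG day 10 (day 12 minus day 10, 1.25 ± 0.19, adjusted p = 0.0028). ZDHHC19, a palmitoyltransferase gene, had 257, 244, 304 and 286 untreated and 687, 452, 700 and 589 on hCG day 12 (1.10 ± 0.17, adjusted p = 0.0063), and 256 ± 42.6 on hCG day 10 (1.19 ± 0.17, adjusted p = 0.0021). In these 3 genes both calls held without any single array, while a second probe set of F2RL1 did not pass between the hCG days (-1.15 ± 0.27, adjusted p = 0.06). The second probe set of CYBRD1 was at 0.97 against untreated arrays and did not pass. The mean untreated signals were 1289 ± 327 for CYBRD1 and 273 ± 27.2 for ZDHHC19, close to those of hCG day 10, and 1421 ± 359 for F2RL1, above its mean on that day.

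PTPN22 was at 136 ± 25.8 on hCG day 10 and 333 ± 57.6 on day 12 (1.20 ± 0.23, adjusted p = 0.019), and WDR41 at 580 ± 74.9 and 1030 ± 126 (0.81 ± 0.15, adjusted p = 0.012). SLAIN1, a microtubule-binding protein gene, was lower on day 12 than on hCG day 10 (517 ± 55.8 against 952 ± 210, -0.84 ± 0.17, adjusted p = 0.023) and than in untreated arrays (886, 1041, 941 and 1093 against 438, 564, 546 and 519, -0.92 ± 0.17, adjusted p = 0.017). WDR41 had untreated signals of 553, 591, 560 and 623 and day 12 signals of 1153, 856, 1081 and 1031 (0.80 ± 0.15, adjusted p = 0.018), while its second probe set was at 0.66 and did not pass. These 3 genes depended on single arrays. The day 12 against hCG day 10 call of PTPN22 ended without hCG day 10 replicate 1, 2 or 4 or hCG day 12 replicate 1 or 3 (adjusted p up to 0.075), that of SLAIN1 without hCG day 10 replicate 1, 3 or 4 or hCG day 12 replicate 1 or 4 (up to 0.09) and that of WDR41 without hCG day 10 replicate 4 (0.051). Against untreated arrays, SLAIN1 lost its call without hCG day 12 replicate 1 or 4 or untreated replicate 4, and WDR41 without hCG day 12 replicate 1, 3 or 4 or untreated replicate 1 (up to 0.076 and 0.075). Without the 3 arrays apart on the third component, PTPN22 lost its call against hCG day 10, ZDHHC19 that against untreated arrays, and SLAIN1 and WDR41 lost both of theirs, as SLAIN1 did under median-centring (0.067 against hCG day 10). With the 2 hCG groups fitted alone, the call of IGF1 against hCG day 10 held and those of F2RL1, CYBRD1, ZDHHC19, PTPN22, WDR41 and SLAIN1 did not (adjusted p from 0.051 to 0.18).

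**Figure D5:**
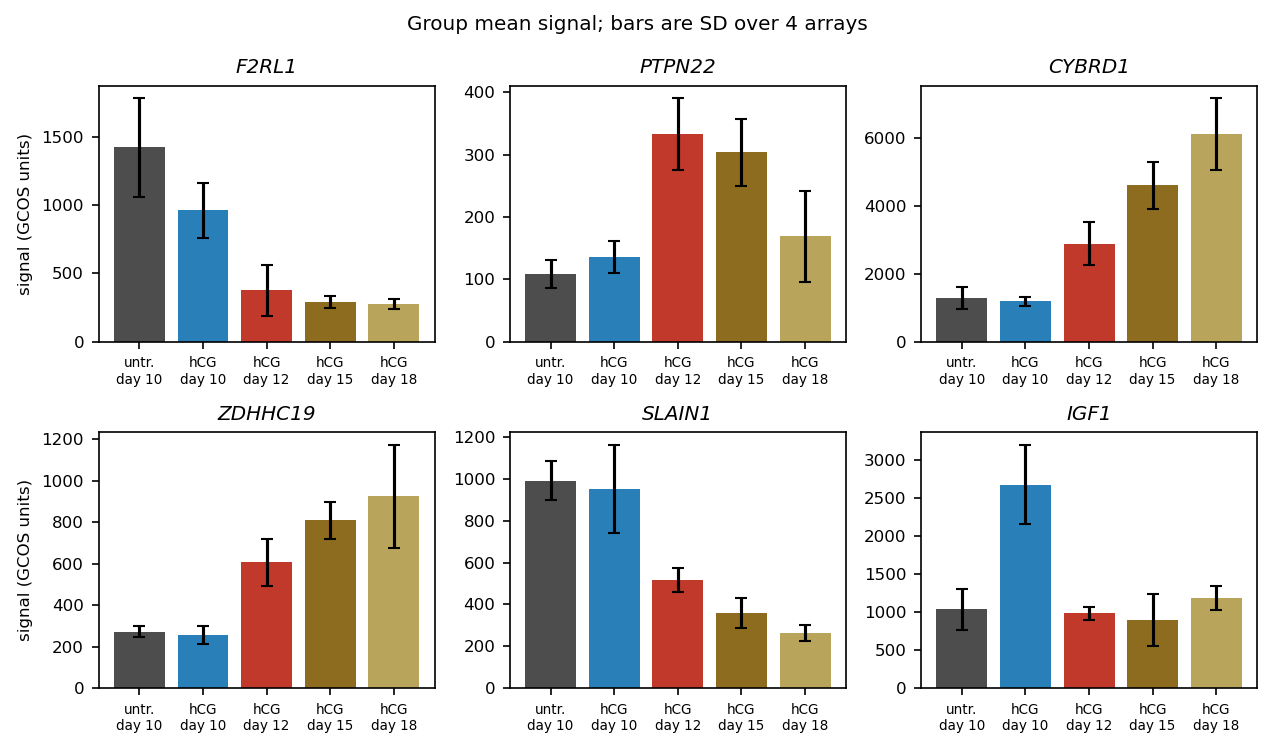
Mean signal (bars from 0) with SD over 4 arrays in each of the 5 groups for F2RL1, PTPN22, CYBRD1, ZDHHC19 and SLAIN1, which differed on hCG day 12 from both untreated and hCG day 10 arrays, and for IGF1. CYBRD1 goes from 1192 on hCG day 10 to 2898 on day 12 and 6131 on day 18, and IGF1 stands at 2682 on hCG day 10 only.

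Several of the largest changes against untreated arrays had day 10 and day 12 means that lay close together, and the test between these days did not pass for them. CEBPA was at 1630 ± 662 on hCG day 10 and 1683 ± 318 on day 12 (0.10 ± 0.26, adjusted p = 0.98), NEDD1 at 286 ± 104 and 291 ± 114 (0.02 ± 0.29, adjusted p = 1) and S100A2 at 443 ± 155 and 467 ± 178 (0.07 ± 0.46, adjusted p = 1). HMGB3 was at 1164 ± 573 on hCG day 10, 2782 ± 926 on day 12 and 2715 ± 1287 on day 15. The step of 1.30 ± 0.38 from day 10 to day 12 did not pass (adjusted p = 0.2). TOB1 and MGST1 lay at 2098 ± 104 and 2792 ± 183 on hCG day 10 and at 3178 ± 686 and 4006 ± 951 on day 12, and neither step passed (adjusted p = 0.51 and 0.32). ID4 was at 1305 ± 141 and 673 ± 287 (-1.04 ± 0.29, adjusted p = 0.16). NANOS1, an RNA-binding protein gene singled out after its values were seen, went from 1623 ± 354 on hCG day 10 to 421 ± 238 on day 12 (-2.03 ± 0.37, adjusted p = 0.012). Against the untreated signals of 1380, 911, 1451 and 1431 its day 12 signals of 217, 764, 354 and 348 did not pass (-1.70 ± 0.37, adjusted p = 0.057), except without hCG day 12 replicate 2 and in some other settings. Its call against hCG day 10 ended without hCG day 10 replicate 3 or hCG day 12 replicate 1 (0.052 each), without the 3 arrays (0.056) and with the hCG groups fitted alone (0.085).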

How the data were processed

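Messenger RNA of 20 corpora lutea was measured on Affymetrix rhesus arrays. Per the submitters' processing notes the authors used GCOS, whose version and scaling target are not given in the sources used here. The deposited values are a linear signal intensity per probe set and array. The 2% trimmed mean was 200.01 or 200.02 in each of them. Precision is limited by the number of arrays. Of 52865 probe sets, 158 controls were left out; 24956 carry 1 symbol in the platform annotation (14132 symbols), 361 several and 27390 none, so genes without a symbol are unnamed here.

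Signals were analysed as log2(value + 16), with no filter. All 20 arrays entered 1 linear model with a mean for each group (limma 3.58.1, R 4.3.3), moderated with eBayes, and p-values were adjusted by Benjamini-Hochberg over 52707 probe sets within each of 3 contrasts. Changes carry standard errors, signals SDs over 4 arrays. The fit was also run on simulated data with noise independent between probe sets and arrays. Those data lack the array-wide differences described above, so the run does not bear on them. Replicate numbers were not treated as pairs. With group means taken out, same-numbered untreated and hCG day 12 arrays correlated at -0.24 to 0.13, and differently numbered ones at -0.15 to 0.30. Between hCG days 10 and 12, same-numbered arrays correlated at -0.08 to 0.36, and differently numbered ones at -0.34 to 0.25. So few correlations cannot exclude a batch shared by equal numbers.

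By rule, named genes are the 15 largest rises and 15 largest falls that passed (1 probe set per gene, LOC symbols skipped), list members that passed, and 19 genes named whatever their values. Those of the 19 without a matching probe set are not analysed here. Further genes were named after their values were seen. They are genes that passed in several probe sets, genes that passed against both untreated and hCG day 10 arrays, list members whose groups did not overlap, and a few others. Lists (26 pathways or families, 12 cell types; 398 of 527 genes measured) take the probe set with the highest mean log2 signal per gene. Members, lists and named genes were chosen with earlier results of these data known. Alternatives were pseudocounts of 1 and 64, median-centring, quantile normalisation, a mean signal of at least 50, the groups compared alone, array weights, eBayes with trend and robust settings, a replicate block, leaving out each array, and, for lists, the median over a gene's probe sets. Leaving out the 3 arrays apart on component 3 was chosen after seeing the data.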

Additional observations from a re-analysis of the deposited data

Results flagged for a closer look

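Within the groups of 4, 11 signals stood apart from the other 3 by Dixon's ratio, among 210 groups examined (105 named probe sets in 2 groups), where chance gives about 5% of groups. In the hCG day 12 group, replicate 2 stood apart in F2RL1 (654 against 269 to 314), IGF1 (1118 against 933 to 957) and APAF1 (160 against 136 to 138), replicate 1 in the MVD probe set that rose (660 against 366 to 401) and replicate 4 in MAPKAPK2 (494 against 308 to 331). In the untreated group, replicate 2 stood apart in STK26 (244 against 597 to 685) and NANOS1 (911 against 1380 to 1451), replicate 4 in CYP19A1 (3806 against 6733 to 6927) and NPC1 (2498 against 3302 to 3443), replicate 1 in LIPA (5013 against 3811 to 3948) and replicate 3 in RGS2 (2258 against 3508 to 3718).

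The change on hCG day 12 differed from that on hCG day 10, in the limma test between these groups, for 138 genes with a symbol. Of the genes named for the comparison with untreated arrays, 8 were among them. ANKRD22, TMPRSS7, ELF5, DAPL1, MFSD2A and TDRD9, named from this test, are not counted in the 8. CYBRD1 (1.25), PTPN22 (1.20), ZDHHC19 (1.19) and WDR41 (0.81) lay higher on day 12, and NANOS1 (-2.03), IGF1 (-1.41), F2RL1 (-1.39) and SLAIN1 (-0.84) lower, in log2 units. CYBRD1, ZDHHC19, WDR41 and SLAIN1 were named because they passed this test and that against untreated arrays. NANOS1 was named after its values were seen. For these genes the result was fixed by the choice.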

How the results depend on the processing

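The 152 probe sets called between hCG day 12 and untreated day 10 became 254 with array weights, 232 with a mean signal of at least 50 and 95 with a pseudocount of 1. They were 7 in the fit of the 8 arrays alone, 93 without the 3 arrays apart on component 3, and 73 to 290 when single arrays were left out. With the replicate block they were 160, and whether equal replicate numbers mark a shared batch was not settled. The 273 called between hCG days 12 and 10 became 56 with these groups alone, 146 with a pseudocount of 1 and 151 to 286 without single arrays. The 0 between hCG days 15 and 12 became 2 with a pseudocount of 1 and 0 to 4 without single arrays. Of the 5 cholesterol synthesis genes that passed, 2 did with a pseudocount of 1, 0 with the 8 arrays alone, 0 without the 3 arrays and 1 to 5 without single arrays. The cause of these moves was not tested, except that fewer arrays leave fewer degrees of freedom. Of 46 calls of named genes, a pseudocount of 1 ended 16, the replicate block 6, and leaving out single arrays 24, and none changed direction under any alternative; of the genes that did not pass, the change of STAR ranged from -0.11 (without hCG day 12 replicate 1) to 0.24 when single arrays were left out and was -0.11 without the 3 arrays, and that of IGF1 ranged from -0.18 to 0.11 (without untreated replicate 1) and was 0.11 with median-centring. Dim probe sets limit the sizes given, since 16 is added to each signal.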
